A study of Homo sapiens with 2 samples.

Results

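EPHB2 and EPHB3 encode receptor tyrosine kinases for membrane-bound ephrin-B ligands, and their loci were examined for ChIP-seq peaks of FLAG-wt-Cdx1, tagged Cdx1, and FLAG-wt-Cdx2, tagged Cdx2. All peaks were taken whose summit lay in 1 of 2 windows, each made of a gene and about 20 kb on either side. The EPHB2 window was chr1:23017000-23262000 and the EPHB3 window was chr3:184259000-184321000, in hg19 (GRCh37) coordinates, and both genes lie on the plus strand. The windows were set by position alone, with no threshold on any measured value. They held 61 of the 415628 peaks in the lists, 27 from the 196910 peaks called with FLAG-wt-Cdx1 and 34 from the 218718 called with FLAG-wt-Cdx2. EPHB2 had 18 peaks of FLAG-wt-Cdx1 and 26 of FLAG-wt-Cdx2, whereas EPHB3 had 9 and 8, respectively.

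The series held a single library of each factor, FLAG-wt-Cdx1 or FLAG-wt-Cdx2, both from DLD1-TetOff, a human colon cancer line in which a doxycycline (DOX)-controlled transactivator drives the transfected gene. Each line was a single-cell clone expressing a tagged Cdx protein of mouse origin, and the cells already grew with DOX at 0.5 µg/mL before it was removed. Cells from 10 dishes were pooled 20 h after removal of DOX, fixed with 1% formaldehyde for 5 min and digested with MNase for 50 min, and anti-FLAG beads were used for precipitation. The sample descriptions speak of cells in which DOX keeps the tagged protein off, although the protocols for the same samples state that DOX had been withdrawn, and the libraries are taken here as induced. After removal of duplicates, 16452141 tags of FLAG-wt-Cdx1 and 13781541 tags of FLAG-wt-Cdx2 were kept. No control or input library was used in peak calling, and with 1 library per factor no difference between the factors could be tested. The paper reports faster induction of Cdx1 than of Cdx2 in DLD1-TetOff lines. Factor, clone and amount of tagged protein therefore cannot be told apart in comparisons of the libraries. Intervals given below cover counting error only.

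EphB receptors position epithelial cells in the intestinal crypt. They are most abundant near the crypt base, where Wnt signaling is high, whereas ephrin-B ligands are found on the differentiated cells above, and repulsion between the cells that carry receptor and ligand keeps the compartments apart. Both receptor genes are known targets of the β-catenin–TCF complex, and EphB3 is required for Paneth cells to settle at the crypt base. CDX1 and CDX2 are homeobox transcription factors of the intestinal epithelium that bind AT-rich sequences. A peak records where DNA recovered with the anti-FLAG beads exceeded the local background. Without a control library, a peak need not mark binding of the tagged protein. It also carries no information about transcription, and mRNA levels of the receptors were not analyzed here.

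To show the sequence at which each gene begins, the 250 bases before the RefSeq start site were taken from GRCh38.p14, a later build than that of the peak lists, so the peaks were not placed on these sequences. The EPHB2 sequence is chr1:22710588-22710837 and the EPHB3 sequence is chr3:184561535-184561784, both on the plus strand and written 5′ to 3′. Capitals mark CpG dinucleotides.
EPHB2: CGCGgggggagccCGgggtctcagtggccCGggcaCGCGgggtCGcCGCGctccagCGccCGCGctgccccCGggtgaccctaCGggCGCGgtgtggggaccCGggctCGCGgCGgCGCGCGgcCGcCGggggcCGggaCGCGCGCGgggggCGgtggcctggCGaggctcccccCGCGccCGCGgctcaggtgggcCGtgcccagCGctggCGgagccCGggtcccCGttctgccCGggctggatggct
EPHB3: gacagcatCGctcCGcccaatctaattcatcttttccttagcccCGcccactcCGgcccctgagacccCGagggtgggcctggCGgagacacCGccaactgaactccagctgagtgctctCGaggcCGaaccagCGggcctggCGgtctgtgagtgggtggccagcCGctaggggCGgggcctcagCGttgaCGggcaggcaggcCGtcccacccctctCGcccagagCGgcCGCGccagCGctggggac
The EPHB2 sequence had a GC content of 84.8% and 42 CpG dinucleotides, above 98.7% of the 27305 RefSeq promoters by number of CpG. The EPHB3 sequence had a GC content of 70.0% and 21 CpG, above 70.2% of promoters. Over all promoters, the median was 58% GC and 11 CpG. The letters TTTAT, the core of the CDX motif, were searched on both strands and occurred 0 times in either sequence, as did the longer TTTATNG, which contains the core, and CTTTGA, the core of the TCF motif. These letters were found in 33.7%, 9.29% and 11.4% of all promoters of the same length, respectively.

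Peaks at EPHB2 lay mostly within the gene, from 4.01 kb to 177 kb with FLAG-wt-Cdx1 and from 4.06 kb to 204 kb with FLAG-wt-Cdx2. The start of each gene was placed 20 kb inside its window, which is approximate, and distances below are counted from there in the direction of transcription. For EPHB2 this leaves a gene of 205 kb in a window of 245 kb, so evenly spread summits would also lie mostly in the gene. Of the 18 FLAG-wt-Cdx1 summits, 16 lay in the gene, 2 lay in the upstream flank and 0 in the downstream flank. All 26 FLAG-wt-Cdx2 summits lay in the gene, with 0 in either flank. The RefSeq length of EPHB2 in the later build is 210.7 kb, but 0 summits lay between the ends given by the windows and by RefSeq, so the counts were the same with either end. The map of EPHB2 summits shows this distribution.

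**Figure D1:**
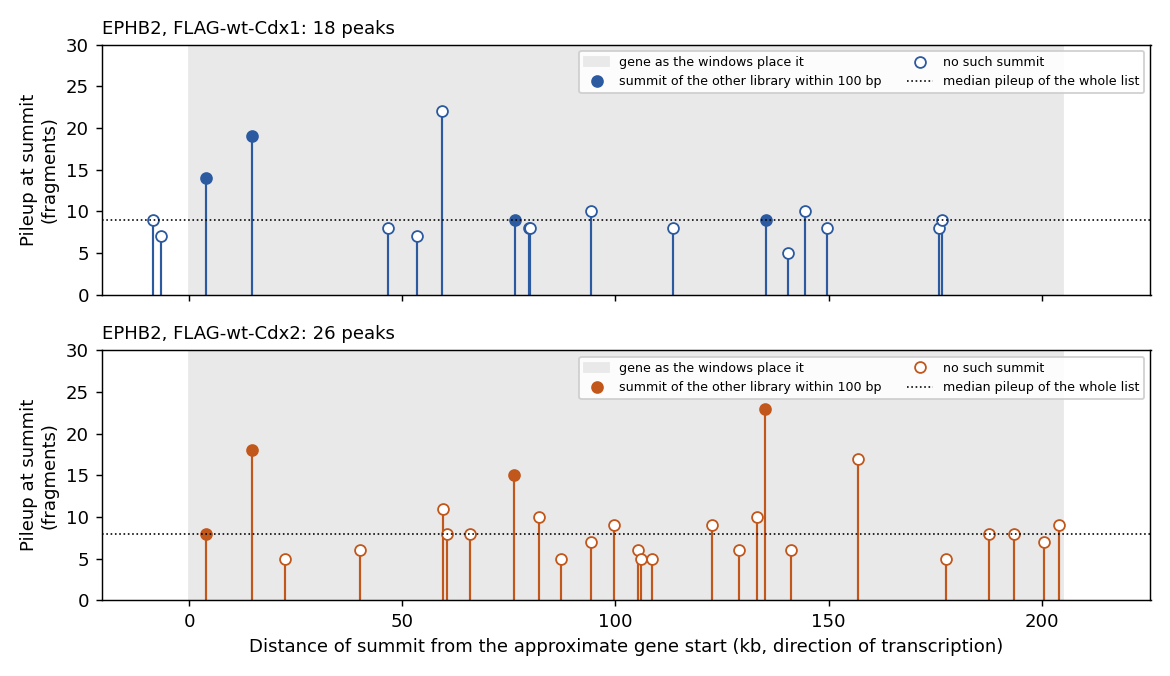
Pileup at each summit (fragments, y axis) against its distance from the approximate start of EPHB2 (kb, x axis) in FLAG-wt-Cdx1 (upper panel, 18 peaks) and FLAG-wt-Cdx2 (lower panel, 26 peaks). Filled points have a summit of the other library within 100 bp, open points do not, the gray area is the gene as placed by the windows, and the dotted lines mark the median pileups of the whole lists (9 and 8 fragments). The highest points are at 59.4 kb in the upper panel and at 135 kb in the lower panel.

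The number of summits at EPHB2 was near that of similar stretches of the genome in the FLAG-wt-Cdx1 list and in the upper part of their range in the FLAG-wt-Cdx2 list. With FLAG-wt-Cdx1, there were 0.735 summits per 10 kb (95% exact Poisson interval, 0.435 to 1.16), against 0.681 on chromosome 1 and 0.648 on chromosomes 1 to 22 and X. With FLAG-wt-Cdx2, there were 1.06 per 10 kb (0.693 to 1.55), against 0.749 and 0.719. The chromosomes were also cut into 12374 adjoining windows of the length used for EPHB2, including those without any summit. The EPHB2 count was higher than in 56.0% of these in the FLAG-wt-Cdx1 list, where the median window held 16, and than in 83.5% in the FLAG-wt-Cdx2 list, where it held 19.

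Gaps between neighboring summits at EPHB2 varied in width, and they were not compared with those of randomly placed summits. The widest gap between neighboring FLAG-wt-Cdx1 summits was 31.8 kb, from 14.8 kb to 46.6 kb, and within it FLAG-wt-Cdx2 had a pair of summits, at 22.6 kb and 40.1 kb with pileups of only 5 and 6 fragments. The widest gap between FLAG-wt-Cdx2 summits was 20.7 kb, from 157 kb to 178 kb. Past the last FLAG-wt-Cdx1 summit, at 177 kb, FLAG-wt-Cdx2 had summits at 178, 188, 194, 201 and 204 kb. Their pileups were 5, 8, 8, 7 and 9 fragments. Upstream of the gene, FLAG-wt-Cdx1 had summits 8.46 kb and 6.57 kb before the start, at pileups of 9 and 7 fragments. FLAG-wt-Cdx2 had none there. Summits of 1 library only were common, as only 29.2% of all FLAG-wt-Cdx1 and 26.3% of all FLAG-wt-Cdx2 summits had a partner within 100 bp. The peaks past 177 kb and those upstream of the gene were of ordinary or low height in their lists. No peak of either whole list had fewer than 5 (FLAG-wt-Cdx1) or 4 (FLAG-wt-Cdx2) fragments, so weaker binding was not detectable at this depth.

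The median heights of the EPHB2 peaks were near those of the whole lists, although a smaller share of the FLAG-wt-Cdx1 peaks exceeded their list median. The pileup, the number of fragments over the summit, had a median of 8.5 and a range of 5 to 22 over the FLAG-wt-Cdx1 summits and a median of 8 and a range of 5 to 23 over the FLAG-wt-Cdx2 summits, against medians of 9 and 8 in the whole lists. It exceeded the median of its list at 5 of the 18 FLAG-wt-Cdx1 summits (27.8%; 95% Wilson interval, 12.5 to 50.9) against 49.9% of that list, and at 10 of the 26 FLAG-wt-Cdx2 summits (38.5%; 22.4 to 57.5) against 39.8%. The pileup percentile is the share of peaks in the same list with a lower pileup, and because pileups are whole numbers with many ties, a peak at the list median has a percentile of 31.9 in FLAG-wt-Cdx1 and 44.8 in FLAG-wt-Cdx2. At EPHB2, 2 peaks of FLAG-wt-Cdx1 had a percentile of 90 or more (11.1%; 3.10 to 32.8), against 8.67% of the list, as did 4 peaks of FLAG-wt-Cdx2 (15.4%; 6.15 to 33.5), against 7.62%. With a −log10 q of at least 5, there were 7 peaks in each library, a share of 38.9% for FLAG-wt-Cdx1 (95% Wilson interval, 20.3 to 61.4) against 52.2% of the whole list, and of 26.9% for FLAG-wt-Cdx2 (13.7 to 46.1) against 29.0%. For all of these shares at EPHB2, the whole-list value lay within the interval.

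The highest FLAG-wt-Cdx1 peak at EPHB2 lay 59.4 kb into the gene, at chr1:23096291-23096801. Its pileup was 22 fragments (95% exact Poisson interval, 13.8 to 33.3) and its fold enrichment, the ratio of pileup to local background with 1 added to each, was 9.42, with a pileup percentile of 97.7. The local background there was 1.81 times the genome-wide value, the highest among the EPHB2 peaks of this library. A FLAG-wt-Cdx2 peak overlapped it, with a pileup of 11 (5.49 to 19.7) and a percentile of 80.5, but the summits were 173 bp apart. At 511 bp, this FLAG-wt-Cdx1 peak was also the longest at EPHB2.

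The highest FLAG-wt-Cdx2 peak at EPHB2 lay 135 kb into the gene, at chr1:23172088-23172294. Its pileup was 23 fragments (14.6 to 34.5), its fold enrichment was 11.4 and its percentile was 98.8. FLAG-wt-Cdx1 had a peak 67 bp away with a pileup of 9 fragments, the median of its list, and a fold enrichment of 5.48. The site was thus shared between the libraries, but it was among the highest peaks in only the FLAG-wt-Cdx2 list.

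A further high FLAG-wt-Cdx2 peak lay 157 kb into EPHB2, at chr1:23193843-23194051, with a pileup of 17 (9.90 to 27.2), a fold enrichment of 10.5 and a percentile of 96.5. No FLAG-wt-Cdx1 summit was called within 7247 bp of it. This was the only FLAG-wt-Cdx2 peak at either gene with a percentile of 90 or more and no FLAG-wt-Cdx1 summit within 100 bp. At EPHB2, the highest FLAG-wt-Cdx1 peak that no FLAG-wt-Cdx2 peak overlapped had a pileup of 10 fragments and lay 144 kb into the gene.

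In total, 4 pairs of summits within 100 bp of each other were found at EPHB2. They made up 4 of 18 FLAG-wt-Cdx1 summits (22.2%; 95% Wilson interval, 9.0 to 45.2) against 29.2% of the whole list, and 4 of 26 FLAG-wt-Cdx2 summits (15.4%; 6.15 to 33.5) against 26.3%. When overlap by at least 1 bp was counted instead, 6 peaks of each library were shared (33.3% and 23.1%, against 34.2% and 30.8% of the lists), the added pairs being those at 59.4 kb and 94.2 kb, whose summits were 173 and 151 bp apart. The pileups of the pair at 94.2 kb were 10 fragments with FLAG-wt-Cdx1 and 7 in the other library. The whole-list shares lay within the intervals at EPHB2. All 4 pairs lay within the gene.

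The pair nearest the start of EPHB2 was 4.01 kb into the gene, and no summit of either library was closer to the start. Its FLAG-wt-Cdx1 peak, at chr1:23040920-23041111, had a pileup of 14 fragments (7.65 to 23.5), a fold enrichment of 8.34 and a percentile of 85.1. The FLAG-wt-Cdx2 summit, 47 bp downstream, had a pileup of 8, a fold enrichment of 5.27 and a percentile of 44.8.

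The pair 14.8 kb into EPHB2 was the site that stood high in both lists. The FLAG-wt-Cdx1 peak, at chr1:23051663-23051880, had a pileup of 19 fragments (11.4 to 29.7), a fold enrichment of 10.7, the highest of the EPHB2 peaks of that library, and a percentile of 95.7. The FLAG-wt-Cdx2 peak, at chr1:23051682-23051918, had a pileup of 18 (10.7 to 28.4), a fold enrichment of 9.41 and a percentile of 97.2. The summits were 29 bp apart.

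The pair 76.3 kb into EPHB2 was higher in FLAG-wt-Cdx2. The pileup was 15 fragments (8.40 to 24.7) at a percentile of 94.2 with FLAG-wt-Cdx2, and 9 fragments at a percentile of 31.9 with FLAG-wt-Cdx1, with 59 bp between the summits.

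The distribution at EPHB3 differed from that at EPHB2 in that most summits lay outside the gene. The window leaves a gene of 22 kb between 2 flanks. FLAG-wt-Cdx1 had 4 summits in the upstream flank, 2 in the gene and 3 in the downstream flank, and FLAG-wt-Cdx2 had 3, 2 and 3. RefSeq gives a length of 20.6 kb in the later build, and again 0 summits lay between the ends. As the gene is short, 22 of the 62 kb of this window are gene, against 205 of 245 kb at EPHB2. The map of EPHB3 shows the summits within the gene and on either side of it.

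**Figure D2:**
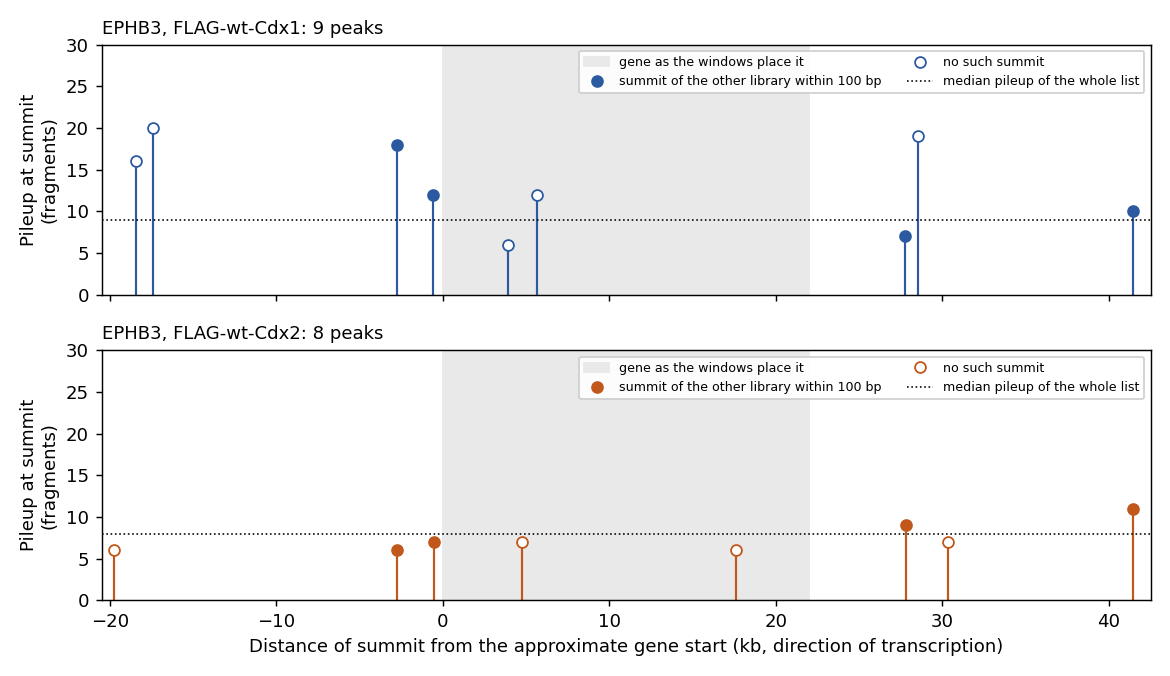
Pileup at each summit (fragments, y axis) against its distance from the approximate start of EPHB3 (kb, x axis) in FLAG-wt-Cdx1 (upper panel, 9 peaks) and FLAG-wt-Cdx2 (lower panel, 8 peaks), with points, shading and dotted lines as in the map of EPHB2. FLAG-wt-Cdx1 reaches 16 to 20 fragments at 4 summits outside the gene, whereas no FLAG-wt-Cdx2 summit exceeds 11 fragments.

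EPHB3 had more summits per length than its chromosome in both libraries, although its counts were small. The density was 1.45 summits per 10 kb with FLAG-wt-Cdx1 (95% exact Poisson interval, 0.664 to 2.76), against 0.712 on chromosome 3, and 1.29 with FLAG-wt-Cdx2 (0.557 to 2.54), against 0.802. The FLAG-wt-Cdx1 interval lay above 0.648, the density over chromosomes 1 to 22 and X, but not above that of chromosome 3, and the FLAG-wt-Cdx2 interval included both references. Among 48936 adjoining windows of the same length, including those without summits, 94.4% held fewer FLAG-wt-Cdx1 summits and 86.5% held fewer FLAG-wt-Cdx2 summits than EPHB3, and the median window held 4 in each library.

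At EPHB3, the FLAG-wt-Cdx1 peaks had a median pileup above that of their list and the FLAG-wt-Cdx2 peaks had one below that of theirs. The FLAG-wt-Cdx1 pileups at the 9 summits were 16, 20, 18, 12, 6, 12, 7, 19 and 10 fragments in order along the chromosome, with a median of 12. The FLAG-wt-Cdx2 pileups at the 8 summits were 6, 6, 7, 7, 6, 9, 7 and 11 fragments, with a median of 7. The pileup exceeded the median of its list at 7 of the 9 FLAG-wt-Cdx1 summits (77.8%; 95% Wilson interval, 45.3 to 93.7) against 49.9% of the list, and at 2 of the 8 FLAG-wt-Cdx2 summits (25.0%; 7.15 to 59.1) against 39.8%, so that both lists lay within the intervals. A percentile of 90 or more was reached by 4 of the 9 FLAG-wt-Cdx1 peaks (44.4%; 18.9 to 73.3), against 8.67% of the list, which lay below the interval. It was reached by 0 of the 8 FLAG-wt-Cdx2 peaks (upper bound, 32.4%), against 7.62%. These intervals treat peaks as independent, although the FLAG-wt-Cdx1 peaks of 16 and 20 fragments were neighbors. By fold enrichment, the peak of 16 fragments had a percentile of 70.3. The intervals were not adjusted for the number of shares compared.

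By the q-value, of the EPHB3 peaks, 7 of 9 had a −log10 q of at least 5 with FLAG-wt-Cdx1 (77.8%; 95% Wilson interval, 45.3 to 93.7) and 1 of 8 with FLAG-wt-Cdx2 (12.5%; 2.24 to 47.1), where the whole lists had 52.2% and 29.0%. Each list's own share lay within the interval, so neither of these counts stood apart from its list beyond counting error. The median local background of the FLAG-wt-Cdx1 peaks at EPHB3 was 1.41 times the genome-wide value, against 1.02 times at EPHB2, and that of the FLAG-wt-Cdx2 peaks was 1.03 times, against 1.10. With no control, this background was estimated from the same library over 10000 bp, so tags of high or close peaks add to it. The higher background at EPHB3 is thus not independent of the higher FLAG-wt-Cdx1 pileups there, and its part in them was not tested.

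The highest FLAG-wt-Cdx1 peak at EPHB3 lay in the outer part of the upstream flank, 17.4 kb before the start, at chr3:184261501-184261703. Its pileup was 20 fragments (12.2 to 30.9), its fold enrichment was 7.73 and its percentile was 96.6. A neighboring FLAG-wt-Cdx1 summit 18.4 kb before the start had a pileup of 16 and a percentile of 91.3. The local background at these summits was 2.15 and 2.25 times the genome-wide value, the highest at either gene. By fold enrichment, which divides by this background, the percentiles were lower, at 91.1 and 70.3. The summits lie within the same 10000 bp, so each can add to the background of the other. FLAG-wt-Cdx2 had no summit within 1 kb of either, and its nearest one, 19.7 kb before the start, had a pileup of 6 fragments over a background of 2.04 times the genome-wide value.

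Downstream of EPHB3, FLAG-wt-Cdx1 had a peak 6.56 kb past the end of the gene, at chr3:184307476-184307868, with a pileup of 19 fragments (11.4 to 29.7), a fold enrichment of 9.40 and a percentile of 95.7. The nearest FLAG-wt-Cdx2 summit was 771 bp away and belonged to the neighboring shared site at 27.8 kb. This was the FLAG-wt-Cdx1 peak of highest fold enrichment without a FLAG-wt-Cdx2 summit within 100 bp at EPHB3. Within the gene, the FLAG-wt-Cdx1 summits at 3.93 and 5.64 kb (6 and 12 fragments) and the FLAG-wt-Cdx2 summits at 4.78 and 17.6 kb (7 and 6 fragments) were all unshared, the closest of them being 848 bp apart. Past the gene, FLAG-wt-Cdx2 also had an unshared summit at 30.3 kb with a pileup of 7.

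At EPHB3, 4 pairs of summits were within 100 bp, as at EPHB2, but out of fewer peaks. They made up 4 of 9 FLAG-wt-Cdx1 summits (44.4%; 95% Wilson interval, 18.9 to 73.3) and 4 of 8 FLAG-wt-Cdx2 summits (50.0%; 21.5 to 78.5), and overlap by at least 1 bp gave the same counts. The whole-list shares of 29.2% and 26.3% lay within these intervals, and the intervals of EPHB2 and EPHB3 overlapped. All 4 pairs were in the flanks, with 2 on either side.

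The pair nearest the start was 579 bp upstream with FLAG-wt-Cdx1 and 525 bp upstream with FLAG-wt-Cdx2, and it was the only site at either gene with a summit within 1 kb of the approximate start. The FLAG-wt-Cdx1 peak, at chr3:184278365-184278520, had a pileup of 12 fragments (6.20 to 20.96), a fold enrichment of 5.69 and a percentile of 73.2. The FLAG-wt-Cdx2 peak, at chr3:184278345-184278626, had a pileup of 7 (2.81 to 14.4), a fold enrichment of 4.61 and a percentile of 24.3. If the start were 1 kb earlier, both summits would fall inside the gene, so their side of the start is not fixed.

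The pair 2.77 kb upstream of EPHB3 was uneven. The FLAG-wt-Cdx1 peak, at chr3:184276118-184276349, had a pileup of 18 fragments (10.7 to 28.4), a fold enrichment of 9.58, the highest at EPHB3, and a percentile of 94.6. The FLAG-wt-Cdx2 summit, 21 bp away, had a pileup of 6 and a percentile of 9.32.

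The remaining EPHB3 pairs were downstream of the gene and of more even height. At 27.8 kb, FLAG-wt-Cdx1 had a pileup of 7 fragments whereas FLAG-wt-Cdx2 had one of 9, with summits 8 bp apart. At 41.4 kb, near the edge of the window, they were 10 and 11 fragments, with summits 13 bp apart. The latter was the highest FLAG-wt-Cdx2 peak at EPHB3, with an interval of 5.49 to 19.7, a fold enrichment of 7.08 and a percentile of 80.5. The percentiles of all peaks are plotted by gene and library.

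**Figure D3:**
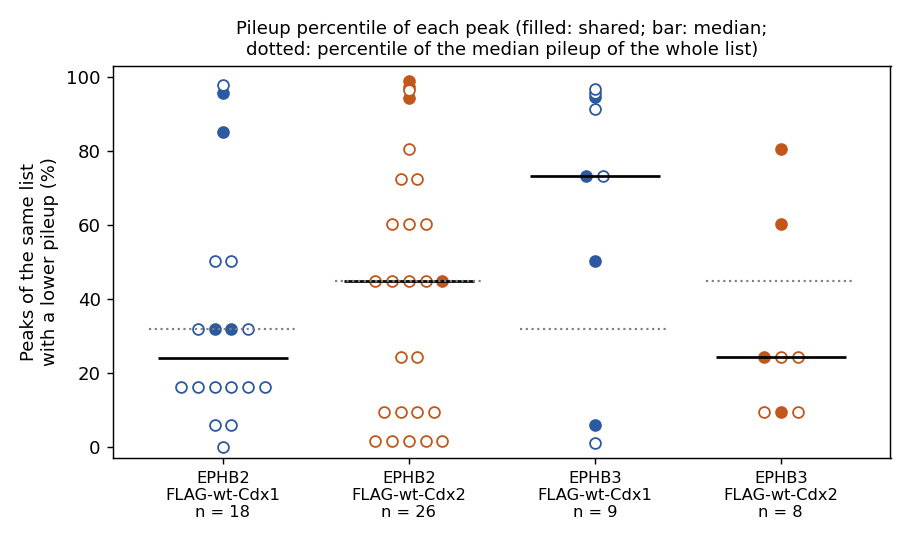
Pileup percentile (percentage of its own list with a lower pileup, y axis) of each peak at EPHB2 and EPHB3 in FLAG-wt-Cdx1 and FLAG-wt-Cdx2 (x axis), with shared summits filled, the median of each group as a bar and the percentile of the whole-list median pileup dotted. The bar lies above the dotted line for FLAG-wt-Cdx1 at EPHB3 (73.2 against 31.9) and below it for FLAG-wt-Cdx2 at EPHB3 (24.3 against 44.8). At EPHB2, it lies below the line for FLAG-wt-Cdx1 (24.1 against 31.9) and on the line for FLAG-wt-Cdx2 (44.8).

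To compare the factors at the 8 shared sites, pileups were scaled to 1000000 kept tags, because the FLAG-wt-Cdx2 library had 0.838 times the tags of FLAG-wt-Cdx1. At 7 of the 8 sites, the 95% interval of the ratio, exact for the sum of both pileups, included 1. The exception was the site 135 kb into EPHB2, with 0.547 fragments per 1000000 tags in FLAG-wt-Cdx1 and 1.67 in FLAG-wt-Cdx2, a ratio of 3.05 (1.36 to 7.49). Over all 57545 pairs of summits within 100 bp in the lists, 3.97% had an interval that left out 1. The ratio of 3.05 was higher than at 99.6% of all pairs. However, the local background at 135 kb was unequal, at a level of 1.59 for FLAG-wt-Cdx2 and 1.03 for FLAG-wt-Cdx1 relative to each library's genome-wide background. Fold enrichment, which takes this background into account, gave a smaller ratio of 2.08, for which no interval was computed. This background was estimated from the same library over 10000 bp. Tags of the FLAG-wt-Cdx2 peak itself, and of its neighbor of 10 fragments at 133 kb, can therefore add to it. The background is thus not independent of the pileup, and its part in the pileup difference was not tested.

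The opposite end was the site 2.77 kb upstream of EPHB3, with 1.09 fragments per 1000000 tags in FLAG-wt-Cdx1 and 0.435 in FLAG-wt-Cdx2. Its ratio of FLAG-wt-Cdx2 to FLAG-wt-Cdx1 was 0.398 (0.129 to 1.05), and only 0.855% of all pairs had a lower one. The site 76.3 kb into EPHB2 had a ratio of 1.99 (0.816 to 5.16), and the site 14.8 kb into EPHB2, high in both libraries, had 1.13 (0.560 to 2.28).

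The sites next to the gene starts were both lower in FLAG-wt-Cdx2, within counting error. The ratio was 0.682 (0.248 to 1.74) at 4.01 kb in EPHB2 and 0.696 (0.232 to 1.92) at 579 bp upstream of EPHB3. Downstream of EPHB3 it was 1.53 (0.509 to 4.85) and 1.31 (0.506 to 3.45). The median ratio was 1.56 over the 4 EPHB2 sites and 1.00 over the 4 EPHB3 sites, against 1.05 over all pairs, with the middle 90% of all pairs between 0.551 and 1.99. The EPHB2 median was 1.17 when fold enrichment was used and 0.983 over the 6 overlapping pairs, so its direction depended on the pairs that were counted.

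**Figure D4:**
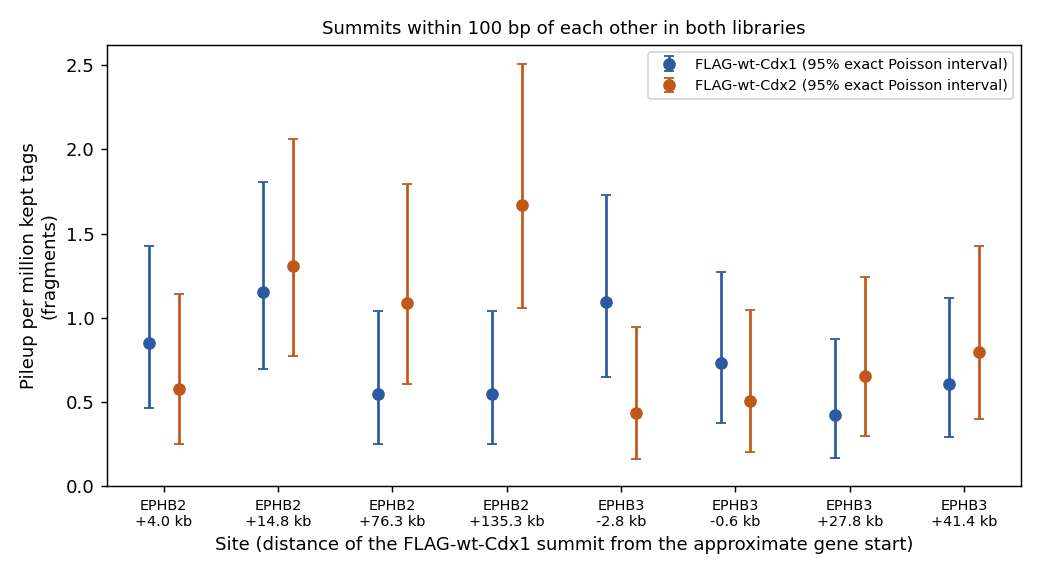
Pileup per 1000000 kept tags (fragments, y axis) at the 8 sites of EPHB2 and EPHB3 with summits within 100 bp in both libraries (x axis, distance from the approximate gene start), with 95% exact Poisson intervals. FLAG-wt-Cdx2 is higher at 5 sites and FLAG-wt-Cdx1 at 3, with the widest difference at 135 kb in EPHB2 (1.67 against 0.547).

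The median heights of shared and unshared summits differed, but not always in the same direction. At EPHB2, the median pileup was 11.5 fragments at the 4 shared and 8 at the 14 unshared FLAG-wt-Cdx1 summits, and 16.5 and 7.5 at the 4 shared and 22 unshared FLAG-wt-Cdx2 summits. At EPHB3, it was 11 at the 4 shared and 16 at the 5 unshared FLAG-wt-Cdx1 summits, and 8 and 6.5 at the 4 shared and 4 unshared FLAG-wt-Cdx2 summits. In the whole lists, shared summits had medians of 11 and 9, and unshared ones 9 and 7. The unshared FLAG-wt-Cdx1 summits at EPHB3 thus had a higher median than the shared ones, opposite to the order in the lists. They included the summits of 16 and 20 fragments upstream and of 19 fragments downstream. The ranges nearly coincided, at 6 to 20 fragments for unshared and 7 to 18 for shared summits, and no interval was computed.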

How the data were processed

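Chromatin bound by FLAG-wt-Cdx1 and FLAG-wt-Cdx2 was measured by ChIP-seq in 1 library each, grouped by sample title. The submitters' processing notes name GRCh37, bcl2fastq 1.8.3, cutadapt 1.1, Trimmomatic 0.32 and MACS2 2.0.10. The roles of these tools beyond peak calling, and the aligner, are not given in the sources used here. Per the file headers, the authors called peaks (MACS 2.0.10.20131216; cutoff, q-value of 0.05) without a control library, allowing 1 tag per position and estimating background over 10000 bp, keeping 95.3% of 17264704 and 94.8% of 14534643 tags. The deposited lists give the pileup signal, not scaled to depth, −log10 p-values and q-values, the fold enrichment as a ratio and a score, which was 10 times the −log10 q-value. Both files of a library held the same peaks. Without a control, regions that are recovered irrespective of either factor would also be called.

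The local background was computed from the deposited pileup and fold enrichment. Summits within 100 bp were called shared, and other definitions of sharing, thresholds, ranks and gene starts were tried as alternatives. Functions for distance, overlap and window counts were checked on the FLAG-wt-Cdx1 list, with copies of some summits shifted by random distances, and against direct counts. The named peaks were, for each gene and library, the 5 highest by pileup, all shared ones and the one nearest the gene start, with further unshared or outlying peaks named after their values were seen. Windows, members and lists were chosen with earlier results of these data known. Sequence at the peaks and summits at other EPHB and EFNB genes were not analyzed here. Intervals were computed with scipy 1.17.1, tables with pandas 2.3.3 and numpy 2.4.6, and plots with matplotlib 3.10.9, under Python 3.11.15.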

Additional observations from a re-analysis of the deposited data

How the results depend on the processing

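Of 58 values computed under alternatives, 37 stayed within their limit and 21 moved. The limit was 1.5 times for a count, the 95% Wilson interval for a shared percentage or a percentile, and the SD between sites for a ratio. For percentiles the interval is very narrow, as it rests on the whole list, so all 12 moved, some by under 1 percentage point. For shared percentages and ratios the limits are wide, as they rest on few peaks or on 4 sites. A value that stayed within these wide limits therefore says little. With a −log10 q of at least 5, EPHB2 had 7 peaks in each library, and EPHB3 had 1 FLAG-wt-Cdx2 peak. With a fold enrichment of at least 5, EPHB2 had 13 peaks in each library, and EPHB3 had 2 FLAG-wt-Cdx2 peaks. Without flanks, EPHB3 had 2 peaks in each library. These counts fall by construction, since fewer peaks or a shorter region are counted. The order of the libraries at EPHB2, 18 against 26 peaks, was thus not kept under the stricter thresholds. However, the q-value threshold kept 52.2% of the whole FLAG-wt-Cdx1 list and 29.0% of the FLAG-wt-Cdx2 list. The median fold enrichments of these lists were 5.33 and 4.72. Both thresholds thus removed a larger share of the FLAG-wt-Cdx2 list, so the change is not particular to EPHB2. Of the FLAG-wt-Cdx2 summits with a −log10 q of at least 5, 42.9% were shared at EPHB2 (3 of 7, against 46.2% of the list) and 100% at EPHB3 (1 of 1). The percentile of the highest FLAG-wt-Cdx1 peak at EPHB2 was 97.2 by fold enrichment, 98.0 by −log10 q and 98.6 by pileup on its own chromosome, and that of FLAG-wt-Cdx2 was 99.2, 99.1 and 98.9. At EPHB3 the values were 91.1, 95.2 and 98.5 for FLAG-wt-Cdx1 and 91.0, 89.3 and 81.8 for FLAG-wt-Cdx2. For these shares and percentiles the cause was not tested. The median ratio at EPHB2, 1.56 for summits within 100 bp, was 0.983 over its 6 overlapping pairs. This value is counted among the 37 that stayed within their limit, although its direction changed. No paired analysis was possible because each factor had a single library.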
